A study of Homo sapiens with 15 samples.

Results

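The peaks described here are those in and around GATA1 and GATA2, taken as every peak of 15 lists of open chromatin that overlapped chrX:48620000-48680000 or chr3:128150000-128330000 on the human genome build hg19. The GATA1 window spans 60 kb and the GATA2 window 180 kb, with the distal enhancers of GATA2. The 15 lists hold 1070377 peaks, and 410 of them fell in these windows, 136 in the GATA1 window and 274 in the GATA2 window. Peaks of different lists that shared at least 1 bp were merged, which gave 13 sites in the GATA1 window and 30 in the GATA2 window, 43 of 120992 merged regions in all.

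The libraries came from K562, a human erythroleukemia cell line, transduced with a puromycin-selected lentivirus for a catalytically dead Cas9 (dCas9) or for dCas9 fused to the repressor domain KRAB. A guide RNA (gRNA) named Cr4 or Cr10 brought the protein to HS2, an enhancer of the beta-globin locus control region. Of the 5 groups, each of 3 libraries, 1 had dCas9-KRAB without gRNA and is called the unguided group. The others are called Cr4-dCas9, Cr10-dCas9, Cr4-KRAB and Cr10-KRAB, after the gRNA and after the protein, which is dCas9 alone or dCas9-KRAB. All of them carry a dCas9 protein, so no group of untransduced cells is among them, and the cells are bulk cultures of a cancer line. The labels give triplicate transductions, but nothing states that each numbered library is a separate culture, so p-values measure the spread between these libraries, which may be technical.

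GATA1 and GATA2 are zinc finger transcription factors that bind the sequence GATA and share much of their DNA-binding region. GATA2 is active in blood stem and progenitor cells and maintains them. GATA1 is required for red cell and megakaryocyte maturation, during which it replaces GATA2 at many sites and represses the GATA2 gene, a change known as the GATA switch. K562 cells express both factors. GATA2 has a distal promoter used mainly in blood progenitors and a proximal promoter used more widely, and it is controlled by enhancers upstream and within an intron. GATA1 has an upstream enhancer used in hematopoietic cells, and GATA factors occupy the HS2 enhancer that the gRNAs were aimed at.

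The 250 bases before each transcription start are shown because a peak was found at the GATA1 start in every list, peaks lay close to the proximal GATA2 start, and none was found at the distal GATA2 start. They are from RefSeq on GRCh38.p14, at chrX:48786340-48786589 on the plus strand for GATA1, and on the minus strand at chr3:128488531-128488780 for the proximal and chr3:128493202-128493451 for the distal promoter of GATA2. These coordinates belong to another build than the peaks and cannot be set against peak positions. Capitals mark the motifs CACCC (read on the other strand as GGGTG), the core of sites for erythroid Krüppel-like factors, and CANNTG, the E-box bound by TAL1 and its partners.
GATA1: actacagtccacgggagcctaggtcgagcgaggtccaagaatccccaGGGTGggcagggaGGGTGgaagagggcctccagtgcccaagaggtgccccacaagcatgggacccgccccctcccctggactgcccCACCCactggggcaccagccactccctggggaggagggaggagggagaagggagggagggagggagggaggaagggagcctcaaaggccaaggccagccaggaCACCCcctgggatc
GATA2 proximal: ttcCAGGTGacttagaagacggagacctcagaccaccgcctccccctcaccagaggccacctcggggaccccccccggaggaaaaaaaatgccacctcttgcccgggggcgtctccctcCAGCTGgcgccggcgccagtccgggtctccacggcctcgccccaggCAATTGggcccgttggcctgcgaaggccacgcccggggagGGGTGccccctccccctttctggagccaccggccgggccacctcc
GATA2 distal: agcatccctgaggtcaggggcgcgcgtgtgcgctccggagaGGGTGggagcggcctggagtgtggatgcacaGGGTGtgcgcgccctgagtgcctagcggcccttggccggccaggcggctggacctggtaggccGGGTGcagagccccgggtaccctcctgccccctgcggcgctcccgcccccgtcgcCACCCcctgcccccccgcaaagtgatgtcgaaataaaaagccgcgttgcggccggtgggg

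The GATA motif was searched on both strands in 4 exact forms. The form AGATAA had 0 matches in the 3 promoters, and 9.17% of all promoters hold it. The same count of 0 was found for TGATAA, which 6.66% of all promoters hold. With a final G in place of the last base, AGATAG (5.66% of all promoters) had 0 matches as well, and so had the form TGATAG (5.05%). At least 1 of these forms is present in 22.3% of 35116 promoter sequences of the same length. CACCC has 4 matches in the GATA1 promoter, 1 in the proximal GATA2 promoter and 4 in the distal GATA2 promoter, and 54.7% of all promoters hold it. CANNTG has 3 matches in the proximal GATA2 promoter and 0 in the other two, and 61.8% of all promoters hold it. The G and C content is 68.4% for GATA1, 71.2% for the proximal and 72.8% for the distal GATA2 promoter, against a median of 58% over all promoters.

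The lists held between 53147 and 94777 peaks, and the GATA2 window held more sites in the longer lists, while the GATA1 window followed length less closely. The shortest list, Cr10-dCas9 replicate 1, had 6 sites in the GATA1 window and 11 in the GATA2 window. The longest, Cr10-dCas9 replicate 3, had 10 and 24. In the GATA1 window, lists of 86931 and 88368 peaks had 12 sites, more than the longest, and lists of 60522 and 88822 peaks both had 9. Because of these lengths, strength was compared by a rank percentile: each list was shortened to its 53098 strongest peaks by fold enrichment over local background, and the strongest peak of a list scored 100 and a site without a kept peak 0. A second measure was the pileup, the number of fragments at a peak's summit, which was recovered from the deposited fold and p-value of each peak. No RNA was measured in these files, so open chromatin here says nothing direct about transcription of either gene.

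Sites that recurred in every list made up 46.2% of the GATA1 window (6 of 13) and 26.7% of the GATA2 window (8 of 30). Of all 120992 regions, 32.1% recurred in every list. In the lists of equal length the GATA1 share was no longer above that of all regions: 40% of the GATA1 sites (4 of 10) and 27.8% of the GATA2 sites (5 of 18) were in every list, against 43.4% of 78352 regions. The median number of lists per site was 14 in the GATA1 window, 11.5 in the GATA2 window and 9 over all regions. Only 1 list supported 2 sites of the GATA1 window and 8 of the GATA2 window, 23.3% of the 43 sites against 19.0% of all regions. Of those 10 sites, 9 came from the 4 longest lists. The single-list sites had folds from 2.07 to 4.45 and widths from 200 to 253 bp.

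**Figure D1:**
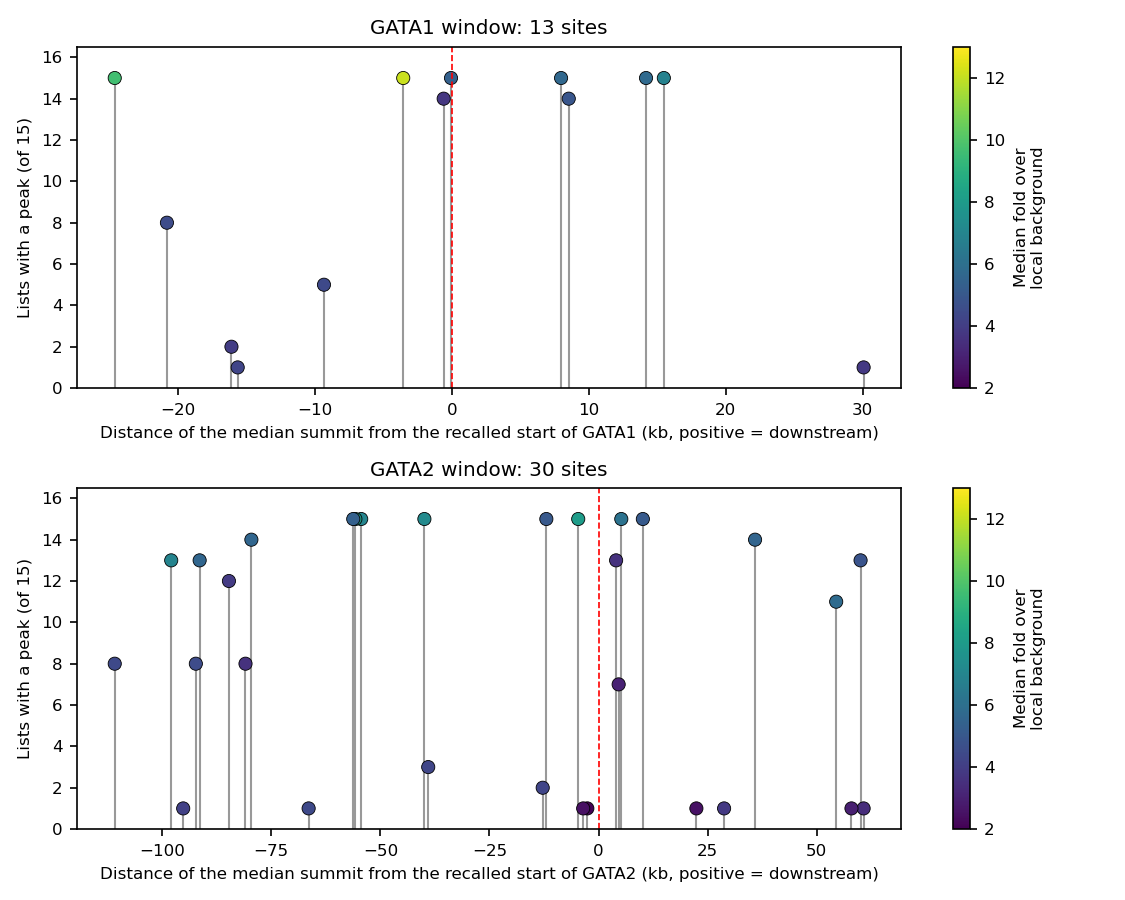
Number of lists with a peak (vertical axis, of 15) for each site, by the distance of its median summit from the recalled start of GATA1 (top) or the distal start of GATA2 (bottom) in kb, coloured by median fold over local background. The 6 GATA1 and 8 GATA2 sites found in all 15 lists lie on both sides of the starts, and the strongest by fold is 3.5 kb upstream of GATA1.

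Distances in the text run from hg19 gene starts that were recalled and not checked against an annotation, and exon or intron positions are recalled in the same way. The strongest site of either locus lay 3.5 kb upstream of GATA1 (chrX:48641215-48641658), on the side of the gene where its known upstream hematopoietic enhancer lies. Its fold had a median of 12.1 (range 10.2 to 13.9) and its width a median of 396 bp. The median summit pileup was 148 fragments, above that of 87.7% of the 38888 regions found in all 15 lists. The summits of the 15 libraries had an SD of 10.3 bp, against a median of 15.8 bp over those regions.

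Its rank percentile was 82.1, 87.1 and 82.6 in the unguided group, 86.7, 89.5 and 86.9 in Cr4-dCas9, and 92.5, 90.6 and 79.2 in Cr10-dCas9. It was 89.8, 92.7 and 88.9 in Cr4-KRAB and 89.5, 84.7 and 87.5 in Cr10-KRAB. The 3 libraries in Cr4-KRAB were above all 3 of the unguided group, as groups were without overlap in either direction at 5.6% of all regions, and Cr10-dCas9 replicate 3 was the lowest of the 15. The mean was 90.5 ± 2.0 (SD, n = 3) in Cr4-KRAB and 87.2 ± 2.4 in Cr10-KRAB, against 83.9 ± 2.73 in the unguided group.

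At the start of GATA1 itself the chromatin was open in every list but the peak was low (chrX:48644760-48645114, summit 0.1 kb from the recalled start). Its median percentile was 14.8 and its median fold 5.38. The percentile was 28.0, 0 and 9.34 in the unguided group, 22.4, 4.72 and 22.2 in Cr4-dCas9, and 6.93, 2.69 and 14.8 in Cr10-dCas9. In Cr4-KRAB it was 22.5, 22.4 and 0, and in Cr10-KRAB 12.1, 17.6 and 29.8. A value of 0 here is a peak outside the 53098 strongest, since the site was in all 15 deposited lists, and all 5 groups overlapped. A weaker site 0.6 kb upstream of the start (chrX:48644200-48644682) was in 14 lists but in only 2 of the shortened ones.

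The GATA1 start had a middling number of fragments on a high local background. The median pileup was 75 fragments, beside the 71 fragments of the median region found in all lists. The median local background was 12.7 fragments, above that of 84.3% of those regions, and fold is the ratio of these quantities after 1 is added to each.

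Downstream of GATA1 the window reaches HDAC6, a histone deacetylase gene that RefSeq lists as the next protein-coding neighbour. The site at the recalled HDAC6 start (chrX:48659919-48661207) had a median percentile of 42.0 and a median width of 1078 bp, wider than 98.2% of the regions found in all lists. Its summits fell at either of 2 positions: between 48660138 and 48660180 in 6 libraries and between 48660427 and 48660532 in 9. The percentile ranged from 32.8 to 55.2, with group means between 40.3 ± 9.11 (SD, n = 3, in the unguided group) and 47.4 ± 10.2 (Cr10-KRAB). The groups overlapped.

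A site between GATA1 and HDAC6 (chrX:48658893-48659373, 14.2 kb downstream of the GATA1 start) had percentiles from 8.10 to 42.7, with a median of 29.8. Its pileup had a median of 109 fragments and its local background, at 16.9 fragments, was above that of 94.1% of regions found in all lists. The group means were 28.4 ± 14.7 (SD, n = 3) in the unguided group, 26.8 ± 6.22 in Cr4-dCas9, 18.6 ± 11.5 in Cr10-dCas9, 26.6 ± 15.8 in Cr4-KRAB and 32.4 ± 5.18 in Cr10-KRAB. Every group overlapped every other.

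On the other side of the window, at the recalled start of GLOD5, the neighbour of GATA1 upstream, lay a strong site (chrX:48620136-48620731). Its median percentile was 72.6, next in strength to the site 3.5 kb upstream of GATA1. The pileup was only 44 fragments at the median, but the local background was 3.76 fragments, higher than that of only 9.65% of regions found in all lists. The percentile ran from 41.0 in Cr10-dCas9 replicate 1 to 86.3 in replicate 2 of the same group, so 1 group held both ends of the range.

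The most uneven GATA1 site lay 8.0 kb downstream of the start (chrX:48652640-48653195), beside the recalled end of the gene. Its percentile was 12.3, 0 and 16.9 in the unguided group, 55.2, 11.6 and 15 in Cr4-dCas9, and 39.1, 35.1 and 7 in Cr10-dCas9. For the guided repressor the values were 42.7, 15.4 and 36.8 in Cr4-KRAB and 75.1, 18.8 and 2.56 in Cr10-KRAB. The highest library of each group with a gRNA was the one numbered 1, and the unguided group had no library above 16.9. The site was chosen for mention after its values were seen.

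Beside it, with a gap of 45 bp, lay chrX:48653241-48653921, 8.5 kb downstream of the start and in 14 lists, the GATA1 site with the largest pooled difference among those not in every list. Its percentile was 17.8, 0 and 0.0678 in the unguided group, 9.72, 0 and 3.26 in Cr4-dCas9, and 0, 14.7 and 15.6 in Cr10-dCas9. Cr4-KRAB had 21.1, 1.32 and 1.36, and Cr10-KRAB had 14.6, 24.6 and 22.3. The mean was 14.2 ± 10.5 (SD, n = 6) in Cr4-KRAB and Cr10-KRAB together and 6.80 ± 7.64 (SD, n = 9) in the others, a difference of 7.42 points with a two-sided exact permutation p of 0.133. The 2 sets of libraries overlapped.

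**Figure D2:**
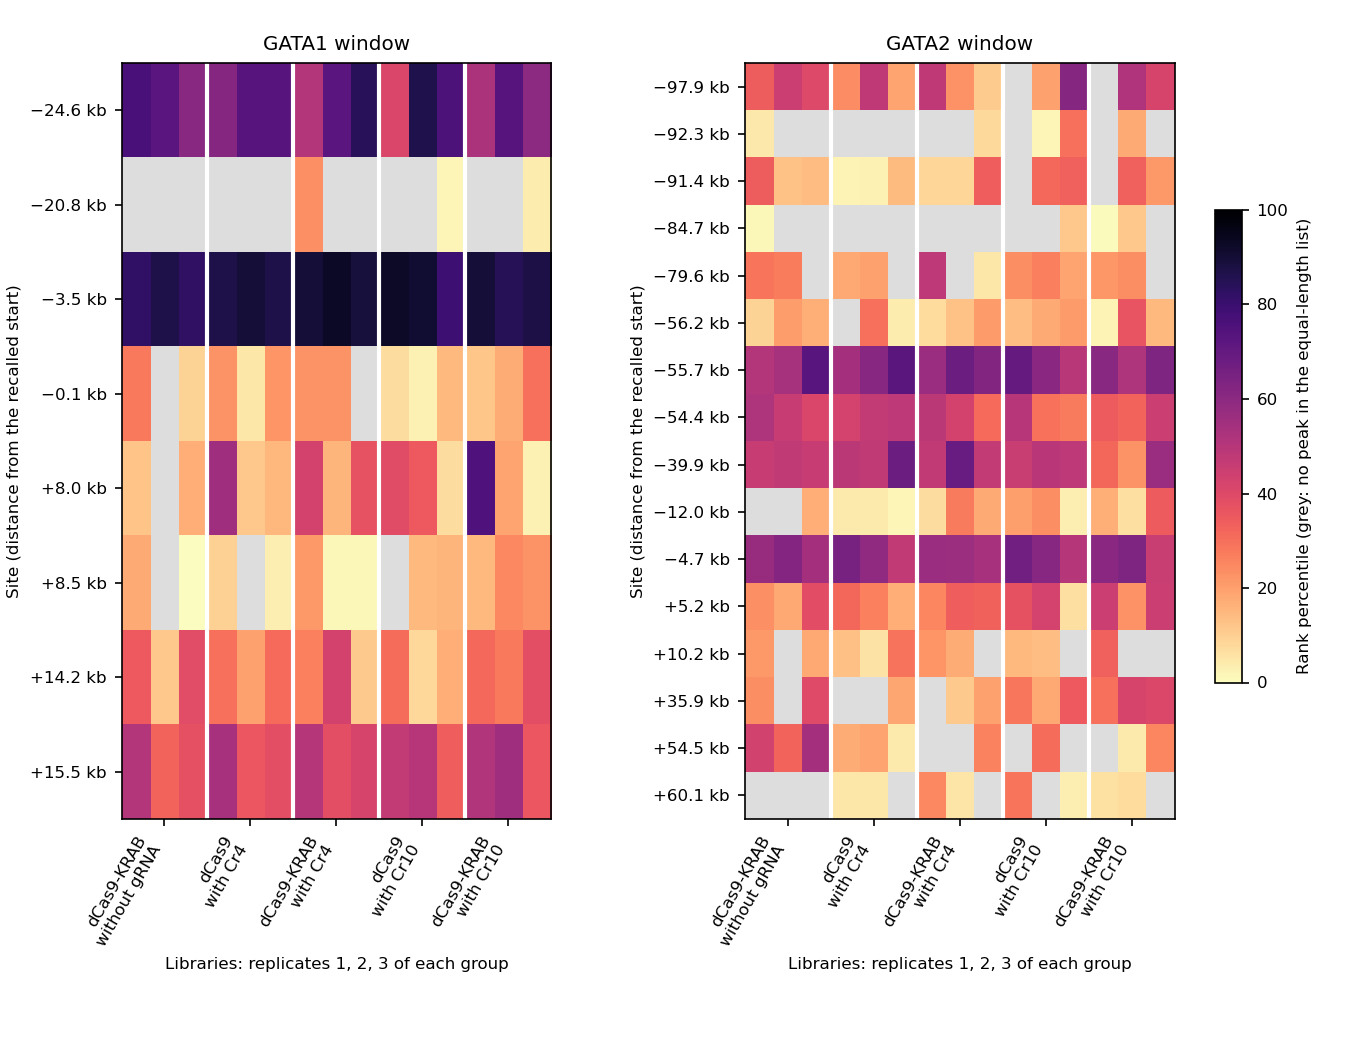
Rank percentile (colour, 0 to 100) of the 8 GATA1 and 16 GATA2 sites with a peak in at least 3 of the equal-length lists (rows, by distance from the recalled start) in 15 libraries (columns, replicates 1 to 3 of 5 groups). The row 3.5 kb upstream of GATA1 is dark in every library, from 79.2 to 92.7, while most GATA2 rows vary within each group.

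In the order of RefSeq, DNAJB8 is the protein-coding neighbour of GATA2 downstream, and the antisense RNA gene GATA2-AS1 and LINC01565 lie toward RPN1. Where the ends of the GATA2 window fall against these genes on hg19 was not checked. In the GATA2 window the strongest site was a distal one, 55.7 kb upstream of the distal start (chr3:128267589-128267943). Its median percentile was 60.9, its median fold 8.23 and its median width 315 bp. The percentile was 50.7, 53.5 and 72.8 in the unguided group, 54.1, 61.1 and 72.0 in Cr4-dCas9, and 69.9, 60.5 and 49.6 in Cr10-dCas9. Cr4-KRAB had 56.6, 67.7 and 62.5, and Cr10-KRAB had 60.9, 51.6 and 63.6. The 5 groups overlapped. The mean was 60.5 ± 5.65 (SD, n = 6) in the libraries of Cr4-KRAB and Cr10-KRAB and 60.5 ± 9.21 (SD, n = 9) in the others.

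This site stood in a cluster of 3 sites found in all lists. The summit of chr3:128266154-128266887 lay 1.34 kb away on one side and that of chr3:128268087-128268468 lay 0.486 kb away on the other. Their median percentiles were 42.6 and 14.7. The middle site of the cluster was thus the highest and the one farthest from GATA2 the lowest.

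The site 4.7 kb upstream of the distal start (chr3:128216352-128216999) had a median percentile of 57.2 and a median width of 521 bp. Its percentile was 57.2, 61.8 and 54.1 in the unguided group, 65.0, 59.3 and 47.0 in Cr4-dCas9, and 66.7, 61.1 and 50.3 in Cr10-dCas9. In Cr4-KRAB it was 56.4, 55.9 and 53.4, and in Cr10-KRAB 60.3, 63.6 and 45.5. The values ran from 45.5 to 66.7 over all 15 libraries, and the groups overlapped.

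At the distal start of GATA2 itself no list had a peak. The nearest sites upstream lay at 2.6 and 3.5 kb, each in 1 list, and the nearest downstream at 4.0 kb (chr3:128207697-128208183), in 13 lists. The latter belonged to a stretch of 3 neighbouring sites between 128206601 and 128208183, which were in 15, 7 and 13 lists in the order of their coordinates. Only the site at chr3:128206601-128207026 entered the shortened lists, and it was in all 15 of them. The distal and proximal starts are 4.67 kb apart in RefSeq on GRCh38.p14. Counted from the recalled distal start on hg19, that distance falls in the middle site (chr3:128207072-128207540), which spans 4.49 to 4.96 kb and was in 7 deposited lists and 0 of the shortened ones. The site found in all lists begins 5.00 kb from the distal start, farther into the gene, so it is described by its position and not as the promoter. No hg19 annotation was used to check this.

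The site at chr3:128206601-128207026 had a median percentile of 31.6 with a median pileup of 110 fragments. That pileup was above 73.6% of the regions found in all lists, and the local background of 16.7 fragments was above 94% of them. Its percentile was 23.2, 18.3 and 38.3 in the unguided group, 31.6, 26.3 and 17.2 in Cr4-dCas9, and 37.1, 42.5 and 6.28 in Cr10-dCas9. For the guided repressor the values were 25.2, 33.8 and 33.0 in Cr4-KRAB and 44.5, 22.9 and 45.1 in Cr10-KRAB. The lowest library was again Cr10-dCas9 replicate 3, the longest list, and the groups overlapped.

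Within GATA2, at the recalled position of its intronic enhancer, a site was open in all 15 deposited lists but weak (chr3:128201713-128202299). Its median percentile was 13.5, and it dropped out of the shortened list in 5 libraries. The percentile was 21.4, 0 and 18.1 in the unguided group, 13.3, 5.51 and 29.0 in Cr4-dCas9, and 14.5, 13.5 and 0 in Cr10-dCas9. Cr4-KRAB had 22, 17.5 and 0, and Cr10-KRAB had 33.3, 0 and 0. The highest value and 2 of the zeros were in the same group.

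A site 39.9 kb upstream (chr3:128251322-128252104) had few fragments on a low background. Its median pileup was 34, higher than in only 6.11% of the regions found in all lists, its median background 3.62 fragments and its median fold 7.20. The percentile was 46.0, 47.5 and 46.0 in the unguided group, 48.8, 47.5 and 67.9 in Cr4-dCas9, and 45.6, 49.0 and 48.4 in Cr10-dCas9. In Cr4-KRAB it was 47.0, 69.0 and 46.8, and in Cr10-KRAB 32.0, 22.5 and 56.5. Cr10-KRAB held the 2 lowest libraries and also the third highest.

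The distal enhancer toward RPN1, known for its rearrangement with the MECOM oncogene in leukemia, lay 110.9 kb upstream. The site there (chr3:128322710-128323108) was in 8 of 15 deposited lists and in 2 of the shortened ones. Its percentile was 12 in Cr4-dCas9 replicate 3 and 14.6 in Cr10-KRAB replicate 3, and its median fold was 4.43.

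**Figure D3:**
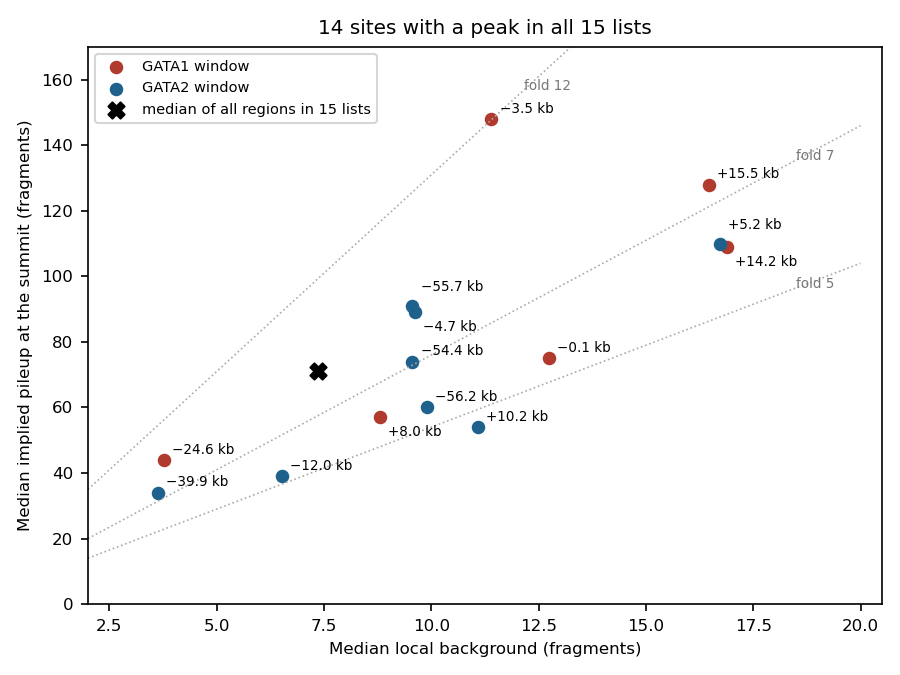
Median implied pileup at the summit (vertical axis, fragments) against median local background (horizontal axis, fragments) for the 14 sites found in all 15 lists, labelled by distance from the recalled start, with lines of equal fold and the median of all regions found in 15 lists. The site 3.5 kb upstream of GATA1 is at 148 fragments on a background of 11.4, while the 3 sites with 109 to 128 fragments have backgrounds above 16.

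The sites not found in every list numbered 7 in the GATA1 window and 22 in the GATA2 window. Their median folds ran from 3.75 to 4.93 and from 2.07 to 6.95. Of the 43 sites, 8 of the GATA1 window and 16 of the GATA2 window had a peak in at least 3 of the shortened lists and could be tested by rank, and 14 were tested by pileup. In the deposited lists, without shortening, 31 sites had a peak in at least 3 lists and were tested by rank as well. Limma called 0 of these 31 sites, and 0 of all 87607 regions tested there, in each of the 8 comparisons. The other 12 sites were compared by presence alone.

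The first question of the design was whether the gRNAs changed chromatin outside HS2, and Cr4-KRAB and Cr10-KRAB were each compared with the unguided group. At HS2 itself (chr11:5301766-5302230, by its recalled position) the log2 pileup differed by −1.15 ± 0.190 (SE) with Cr10 and by −0.69 ± 0.190 with Cr4, limma adjusted p 0.0999 and 1.00. By rank HS2 differed by −42.3 ± 12.1 points (SE) with Cr10 and by −6.71 ± 12.1 with Cr4, unadjusted limma p 0.00305 and 0.587. Neither was called, so a difference of that size can stay uncalled by rank, which limits what a count of 0 can show. With the replicate number as a block, shared by all 15 libraries in the fit, the HS2 difference with Cr10 had a limma adjusted p of 3.74e-05. Replicate numbers paired for Cr10-KRAB and the unguided group but not for every group. For Cr10-dCas9 against the unguided group the same-numbered library was the best match in 0 of 3 pairs. No GATA1 or GATA2 site was called at a limma adjusted p below 0.05, with or without the block, 0 of 24 by rank and 0 of 14 by pileup, where 0.0% of 62858 and 0.0% of 38888 regions were called. The same counts, 0 of 24 and 0 of 14 against 0.0% of all regions, held in the other 6 comparisons: Cr4-dCas9 and Cr10-dCas9 against the unguided group, each of the KRAB groups against the dCas9 group of its gRNA, Cr4-KRAB against Cr10-KRAB, and the 6 libraries of Cr4-KRAB and Cr10-KRAB against the other 9.

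At the site 3.5 kb upstream of GATA1 the difference from the unguided group was 6.54 ± 2.97 points (SE) for Cr4-KRAB, with an unadjusted limma p of 0.0430 and an adjusted p of 1.00. It was 3.29 ± 2.97 points for Cr10-KRAB. The pileup at the same site differed by 0.10 ± 0.13 and 0.14 ± 0.13 on the log2 scale. All 3 Cr4-KRAB libraries were higher by rank, but the difference did not pass the adjustment.

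A single site passed an unadjusted p of 0.05 in more than 1 comparison. At chr3:128157416-128157700, 54.5 kb downstream of the distal GATA2 start, the percentile was 43.1, 32.7 and 54.2 in the unguided group. It was 17.3, 19.1 and 4.25 in Cr4-dCas9, and 0, 30.5 and 0 in Cr10-dCas9. For the guided repressor the values were 0, 0 and 26.0 in Cr4-KRAB and 0, 4.21 and 25.1 in Cr10-KRAB. In these shortened lists all 3 unguided libraries were above each of the other 12, while groups did not overlap at 5.6%, 5.4%, 3.64% and 5.07% of all regions in the comparisons of Cr4-KRAB, Cr10-KRAB, Cr4-dCas9 and Cr10-dCas9 with the unguided group.

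The differences from the unguided group at this site were −34.6, −33.5, −29.7 and −33.1 points (each ± 10.6, SE) for Cr4-KRAB, Cr10-KRAB, Cr4-dCas9 and Cr10-dCas9. These comparisons share the same 3 control libraries, so they are not separate observations. The unadjusted limma p-values were 0.00488, 0.00605, 0.0127 and 0.00657, and the adjusted p was 1.00 in each. The site has few fragments, a median of 29 at the summit, and it was present in 11 deposited lists. By deposited rank and by fragments, neither adjusted for list length, the separation did not hold. Cr4-KRAB replicate 3 was at 55.7, above unguided replicate 1 at 52.3, and its 55 fragments exceeded the 26, 50 and 27 of the unguided libraries. Its list had 88822 peaks and a median pileup of 59, that of unguided replicate 1 had 63387 and 44. By fold Cr4-KRAB replicate 3 was at 5.81, against a mean of 7.07 ± 1.15 (SD, n = 3) in the unguided group. The 0 of Cr10-dCas9 replicate 3 was a deposited peak of 42 fragments at percentile 43.6, below the cut of the shortened list. In the deposited lists the unadjusted limma p-values were 0.0400, 0.0625, 0.298 and 0.127, in the same order of groups, with an adjusted p of 1.00 in each.

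At unadjusted limma p below 0.05 there were 2, 1, 1 and 1 of the 24 sites in the comparisons of Cr4-KRAB, Cr10-KRAB, Cr4-dCas9 and Cr10-dCas9 against the unguided group. The shares over all regions were 2.43%, 2.81%, 1.39% and 2.97%. Cr4-KRAB against Cr4-dCas9 and Cr10-KRAB against Cr10-dCas9 gave 0 sites each, where 1.25% and 2.5% of all regions passed. Cr4-KRAB against Cr10-KRAB gave 1 site against 2.65% of all regions, and the pooled comparison gave 0 against 1.72%. Over the 8 comparisons this was 6 of 192 site tests, 3.12%, against 2.21% for all regions, and by pileup it was 0 of 112 against 0.744%. The pileup shares over all regions were 0.723%, 0.841%, 0.311% and 1.09% in the comparisons of Cr4-KRAB, Cr10-KRAB, Cr4-dCas9 and Cr10-dCas9 against the unguided group. They were 0.211% for Cr4-KRAB and 1.3% for Cr10-KRAB against dCas9 with the same gRNA, 0.717% for Cr4-KRAB against Cr10-KRAB and 0.769% when pooled.

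The site in Cr4-KRAB against Cr10-KRAB was chr3:128175892-128176352, 35.9 kb downstream of the distal GATA2 start. Its percentile was 0, 11.2 and 19.3 in Cr4-KRAB and 29.9, 41.9 and 40.7 in Cr10-KRAB. The difference was −27.3 ± 10.2 points (SE), with an unadjusted limma p of 0.0170 and an adjusted p of 1.00. The groups did not overlap there, which holds for 5.81% of all regions, and the values of 23.5, 0 and 39.7 in the unguided group spanned both. Pooled, the mean was 23.8 ± 16.7 (SD, n = 6) in the KRAB groups with a gRNA against 18.1 ± 15.3 (SD, n = 9), with a two-sided exact permutation p of 0.500.

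**Figure D4:**
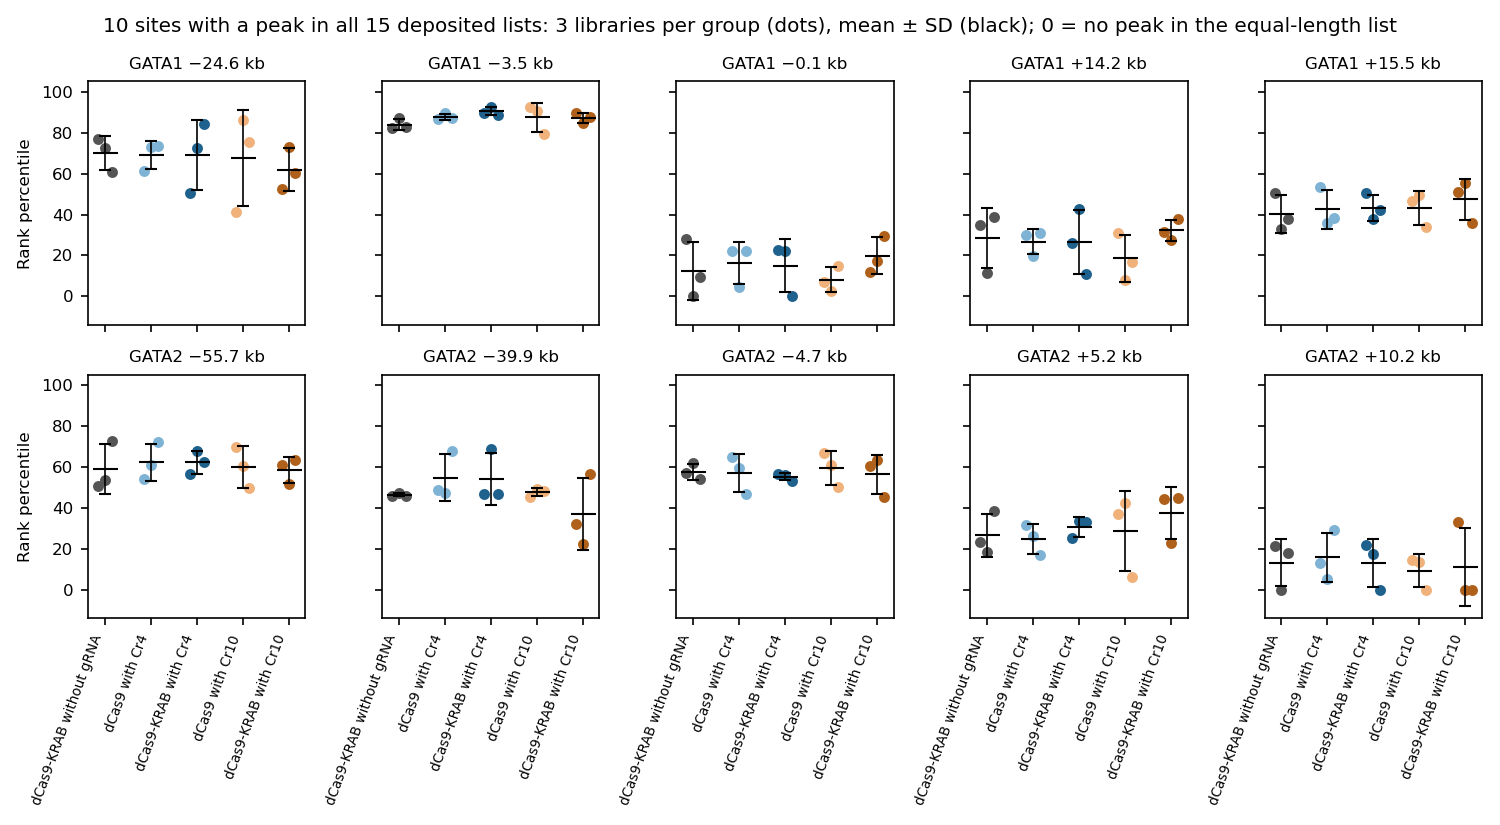
Rank percentile (vertical axis, 0 to 100) at 10 sites found in all 15 deposited lists, by group (horizontal axis), with 3 libraries per group as dots and the mean ± SD in black; 0 means no peak among the 53098 strongest. At the site 3.5 kb upstream of GATA1 the 3 libraries in Cr4-KRAB (88.9 to 92.7) are above the 3 of the unguided group (82.1 to 87.1), and at most other sites the groups overlap.

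The libraries of Cr4-KRAB and Cr10-KRAB were then pooled, 6 against 9, because this is the contrast that separates a targeted repressor from its controls. At the site 3.5 kb upstream of GATA1 the mean was 88.8 ± 2.66 (SD, n = 6) against 86.4 ± 4.32 (SD, n = 9), a difference of 2.47 points with a two-sided exact permutation p of 0.237. At the site chr3:128206601-128207026, 5.2 kb downstream of the distal GATA2 start, it was 34.1 ± 9.33 against 26.8 ± 11.8, a difference of 7.32 points and the lowest exact permutation p of the 10 sites in the plot by group, 0.224. At the strongest GATA2 site by rank, 55.7 kb upstream, the exact permutation p was 1. None of the 24 sites was below 0.05, and the lowest unadjusted value over these 24 tests was 0.0851, at chr3:128223666-128224236, where the difference was 9.99 points.

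Of the GATA1 sites 7 of 8 had a positive pooled difference, with a median of 4.60 points. Of the GATA2 sites 9 of 16 had one, with a median of 0.13 points. Over all 62858 regions 51.5% were positive, with a median of 0.11 points. By pileup 5 of 6 GATA1 sites were positive with a median of 0.13 on the log2 scale, and 4 of 8 GATA2 sites with a median of −0.000403, against 0.00361 over all 38888 regions. The sites of a window are neighbours measured in the same 15 libraries, so they are not separate observations. Whether the share of positive differences departs from that of all regions was not tested.

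Presence was compared in the same way. No site of the 43 had a peak in all libraries on one side of a comparison and in none on the other, in any of the 8 comparisons. Against the unguided group this held at 0.155% of all regions for Cr4-KRAB, 0.275% for Cr10-KRAB, 0.0479% for Cr4-dCas9 and 0.0793% for Cr10-dCas9. It held at 0.159% for Cr4-KRAB against Cr4-dCas9, again 0.159% for Cr10-KRAB against Cr10-dCas9, 0.331% for Cr4-KRAB against Cr10-KRAB and 0.0% for the pooled comparison. The number of sites per library was 9.33 ± 2.31 (SD, n = 3) in the GATA1 window and 17.3 ± 4.16 in the GATA2 window in the unguided group. In Cr4-KRAB and Cr10-KRAB each library had 9 GATA1 sites, and the GATA2 sites numbered 17.7 ± 3.79 and 17.0 ± 3.46. The counts were 9.67 ± 2.08 and 19.7 ± 2.52 in Cr4-dCas9 and 8 ± 2 and 17.3 ± 6.51 in Cr10-dCas9.

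**Figure D5:**
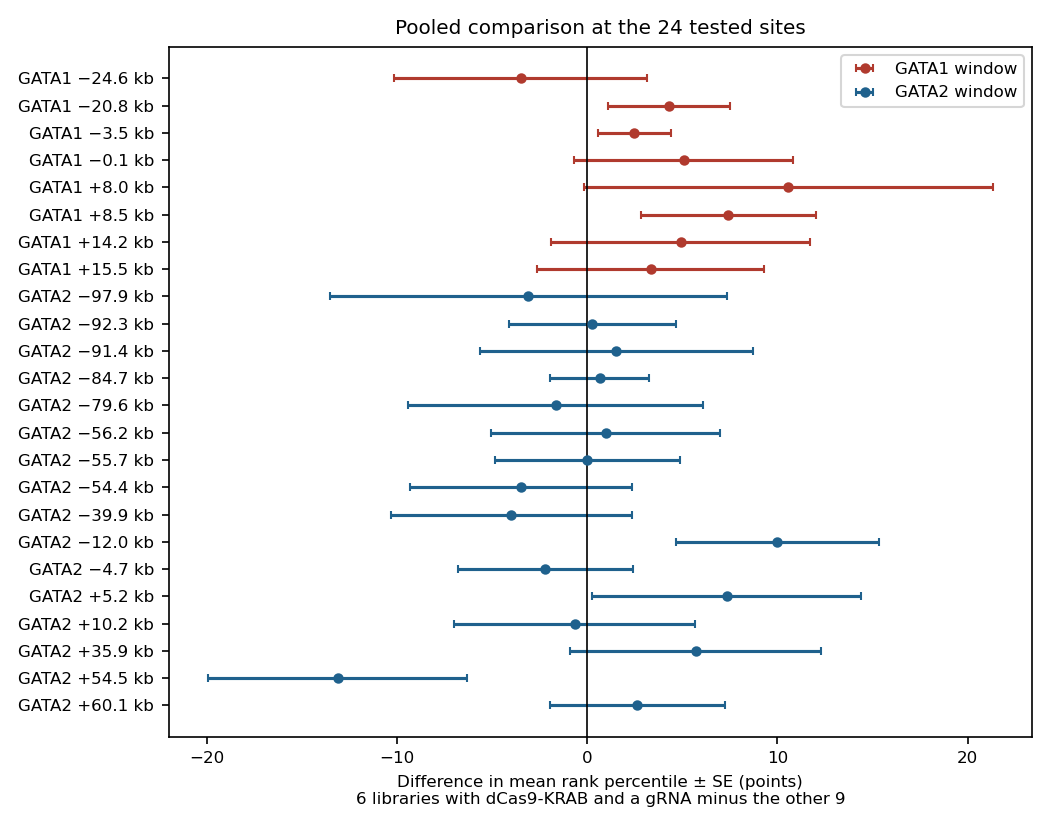
Difference in mean rank percentile (horizontal axis, points, ± SE from limma) between the 6 libraries of Cr4-KRAB and Cr10-KRAB and the other 9, for 8 GATA1 sites (red) and 16 GATA2 sites (blue), ordered by distance from the recalled start. None of the 24 sites was called, and the difference farthest below 0 is −13.1 points, 54.5 kb downstream of the distal GATA2 start.

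By rank, groups of a comparison did not overlap at 1 higher and 1 lower site of 24 for Cr4-KRAB against the unguided group (5.6% of all regions) and at 1 lower site for Cr10-KRAB (5.4%). Against the unguided group there were also 1 higher and 1 lower site for Cr4-dCas9 (3.64%) and 1 lower site for Cr10-dCas9 (5.07%). Cr4-KRAB against Cr4-dCas9 gave 1 higher site (3.91%), Cr10-KRAB against Cr10-dCas9 gave 0 (4.67%), Cr4-KRAB against Cr10-KRAB gave 1 lower site (5.81%), and the pooled comparison gave 0 (0.00795%). The higher site for Cr4-dCas9 was chr3:128251322-128252104, where 47.5 in the lowest library of Cr4-dCas9 and in the highest of the unguided group differed only beyond the first decimal. The higher site for Cr4-KRAB against Cr4-dCas9 was chr3:128223666-128224236, at 6.78, 27.3 and 17.6 against 4.26, 4.11 and 1.75.

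Whether the change from dCas9 to dCas9-KRAB differed between Cr10 and Cr4 was tested as an interaction at the same sites. The lowest unadjusted limma p over 38 tests was 0.220 and the lowest adjusted p was 1.00.

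Other GATA factors and the partners of GATA1 were examined at recalled hg19 positions with 5 kb on either side. The family members were GATA3, GATA4, GATA5 and GATA6. The partners were TAL1, LMO2 and LDB1, which form a complex with GATA factors, the cofactor ZFPM1 (FOG1), the erythroid factor KLF1, the repressor GFI1B, RUNX1 and MYB. They held 52 testable regions, and 0 were called by limma in each of the 8 comparisons. At unadjusted p below 0.05 there was 1 higher region for Cr4-KRAB against the unguided group, 1 for Cr10-KRAB and 1 in the pooled comparison, 1.92% of the 52 each time, at GATA4 in all 3. Over all regions 2.43%, 2.81% and 1.72% passed in these comparisons, so the share at these genes was near that of all regions, and 0.0% were called. The highest mean percentile at GATA1 was 87.3, above that of each of these genes, among which GFI1B was highest with 82.6 and GATA5 lowest with 28.6. At GATA2, with the same 5 kb on either side, it was 57.2, above only TAL1 (50.5), MYB (45.1) and GATA5. Each value is the highest over unequal numbers of tested regions, from 1 at TAL1 to 9 at ZFPM1 and RUNX1.

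How the sites varied across libraries was described by the Pearson correlation of the centred log2 pileup. It had a median of 0.403 over the 15 pairs of GATA1 sites, 0.0276 over the 28 pairs of GATA2 sites and 0.0862 over the 48 pairs between the genes. The sites of each pair were measured in the same 15 libraries, whose lists differ in length, and base composition was not examined. These are descriptions, and no test was made. Most like the site 3.5 kb upstream of GATA1 in this measure was chr19:2236126-2237165, with a correlation of 0.922, and most like the site 55.7 kb upstream of GATA2 was chr1:246305710-246306050, with 0.944. The 99th percentiles of these correlations over 38888 regions were 0.753 and 0.795.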

How the data were processed

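Open chromatin was measured from nuclease-digested nuclei in 15 libraries, 3 in each of 5 groups that follow the sample titles and the design text; one label names HS2 as gRNA target in the group without gRNA too. CASAVA 1.3, BWA, bedtools and the build hg19 are named per the submitters' processing notes; the peak caller and its threshold are not stated. The authors deposited 1 list of called peaks per library, with a fold enrichment (a ratio), −log10 p-value and −log10 q-value columns, and a whole-number score. Fold ranks peaks only within a list, and no normalization between libraries is stated. Fragment totals per library are not stated, so list lengths stand beside the values.

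Lists were shortened to 53098 peaks on autosomes and X by fold, which kept 56.1% of the longest; overlaps of at least 1 bp were merged, and regions in at least 3 lists were tested. The implied pileup k solves fold = (k + 1)/(λ + 1) with a Poisson p-value, where λ is the local background. Fold and −log10 p gave a whole k, within 0.01, for 100% of peaks in each list, against 3.83% to 5.62% with shuffled p-values. Log2(k + 1) less the library median was tested over regions in all 15 lists. Limma 3.58.1 (R 4.3.3) fitted all 15 libraries with a mean-variance trend, p-values were two-sided and adjusted by Benjamini and Hochberg over all regions, with a threshold of 0.05, and the script was tested on simulated data. Limma reports differences as coded, first group minus the other. Single sites were tested by exact permutation of 6 against 9 libraries over 5005 splits, with Python 3.11.15 and scipy 1.17.1.

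Members and lists were chosen with earlier results of these data known. The rule was to describe in full up to 5 sites per locus found in all 15 lists, those nearest to recalled landmarks and then those of highest mean percentile, and the 3 less recurrent sites with the largest pooled difference. Replicate numbers come from the titles. Same-numbered libraries deviated together in all 3 pairs on both measures for Cr4-dCas9 against the unguided group (correlations 0.242 to 0.380 by rank, 0.309 to 0.535 by pileup) and for Cr10-KRAB against it (0.137 to 0.241 and 0.121 to 0.460). For Cr4-KRAB, pileup correlations were also positive, 0.127 to 0.576 against Cr4-dCas9 and 0.111 to 0.460 against Cr10-KRAB. By rank they were −0.056 to 0.386 and 0.069 to 0.312. In both comparisons the same-numbered library was the best match in only 1 of 3 pairs on either measure. Cr4-KRAB against the unguided group had −0.103 to 0.219 by rank and −0.137 to 0.516 by pileup, with 1 of 3 best matches. Cr10-dCas9 against the unguided group had 0.00185 to 0.0364 by rank and −0.213 to 0.0888 by pileup, with 0 of 3. Cr10-KRAB against Cr10-dCas9 had −0.172 to 0.0785 by rank, with 1 of 3, and −0.0665 to 0.160 by pileup, with 0 of 3. Alternatives covered list length, ranking column, scaling, filters, overlap of 50 bp, limma settings, the replicate block and each library left out. Gene positions on hg19 were recalled, not checked. Promoter sequences were matched by symbol in RefSeq, 3 of 3.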

Additional observations from a re-analysis of the deposited data

Results flagged for a closer look

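At the site 39.9 kb upstream of GATA2 (chr3:128251322-128252104), 1 library lay far from the other 8 of its pool. Among the 9 libraries outside Cr4-KRAB and Cr10-KRAB, the rank percentile was 67.9 in Cr4-dCas9 replicate 3 and 49.0 in the next highest. The gap was 0.845 of the range of these 9 libraries, against a critical value of 0.493. Such gaps were looked for in 20 groups of libraries at 10 sites, and chance gives about 1 in 20.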

How the results depend on the processing

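Of the GATA1 and GATA2 sites none was called in any of the 8 comparisons under any alternative, by rank or by pileup, and the exact permutation p of the 10 sites described stayed between 0.111 and 1. Over all regions, calls moved from 0 to 1 by pileup with the replicate block in Cr10-KRAB against the unguided group, in Cr10-KRAB against Cr10-dCas9 and in the pooled comparison; in each the region was HS2. For Cr10-KRAB against the unguided group, whose replicate numbers pair, HS2 then had a log2 difference of −1.15 and a limma adjusted p of 3.74e-05. The block is shared by all 15 libraries, and the numbers do not pair in every group. In Cr10-KRAB against Cr10-dCas9 the same-numbered library was the best match in 0 of 3 pairs by pileup. The block changed no other call. Leaving out single libraries gave 0 to 1 calls by pileup in Cr10-KRAB against the unguided group (1, again HS2, without unguided replicate 2, Cr4-dCas9 replicate 1, Cr4-KRAB replicate 1 or Cr10-KRAB replicate 1). It gave 0 to 1 in the pooled comparison (HS2, without the first or the last of these) and 0 to 2 by rank in Cr10-KRAB against Cr10-dCas9 (2 regions outside the windows, without Cr10-dCas9 replicate 3). The cause was not tested.

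Counts of recurrent sites changed when the lists were shortened by fold. In lists of equal length the GATA1 window had 4 sites in every list instead of 6 and 10 in at least 1 list instead of 13, and the GATA2 window 5 instead of 8 and 18 instead of 30. The share over all regions was then 43.4% instead of 32.1%.

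Small pooled differences changed sign. By rank, the intron site (chr3:128201713-128202299) was at 0.97 with the 50000 strongest peaks and from −6.22 to 2.62 without single libraries. The site 55.7 kb upstream was at −1.38 points in the deposited lists, at −0.025 by log2 rank and from −1.74 to 2.31 without single libraries. The site 4.7 kb upstream ranged from −3.99 to 0.52 and the GLOD5 site from −7.94 to 1.14. By log2 pileup, the site 39.9 kb upstream was at 0.019 with quantile normalization, and the site 55.7 kb upstream at −0.073 without centring and −0.0065 with quantile normalization. Without single libraries the log2 pileup ranges were −0.104 to 0.0097 (intron), −0.088 to 0.047 (4.7 kb upstream), −0.110 to 0.063 (39.9 kb), −0.042 to 0.071 (55.7 kb) and −0.153 to 0.00995 (GLOD5). The pooled comparison uses all 15 libraries, so a fit on the compared libraries alone adds nothing there. The cut by fold limits the weakest sites: those outside the shortened lists have a value of 0 whatever their height.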
